A study of Arabidopsis thaliana with 8 samples.

Results

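Binding peaks of the Arabidopsis GATA factors GNC and CGA1 that were centred in the first intron of a protein-coding gene are described here, with the genes, the intron lengths and the peak scores. A peak was taken when its centre lay in the first intron of a protein-coding transcript and in no exon. The centre also had to lie outside the window from 1000 bp upstream to 100 bp downstream of every protein-coding transcription start site (TSS), and outside the window from 100 bp upstream to 1000 bp downstream of every transcript end. This rule used positions only and no score. It took 561 of the 16322 peaks in the 4 deposited lists, namely 188 and 195 peaks in GNC replicates 1 and 2 and 89 peaks in each of the CGA1 replicates.

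ChIP-seq, in which chromatin bound by a tagged protein is precipitated and sequenced, was carried out on myc-GNC and myc-CGA1 overexpression lines in the Col-0 ecotype. Every library was made from whole rosette leaves of plants that were 3 weeks old and grown under long days, and all of these plants carried 1 of the 2 myc-tagged transgenes beside the native genes. For each line an anti-myc IP library and an INPUT library were made in 2 biological replicates, 8 libraries in all, and no untagged plants were among the samples analysed here. The tagged proteins were overexpressed, and the cell types of the leaf were mixed.

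First introns of plant genes often lie close to the TSS, and some of them raise the expression of the gene that holds them, an effect known as intron-mediated enhancement. Other first introns carry binding sites for transcription factors. GNC and CGA1 (also called GNL) are closely related B-class GATA zinc finger factors that bind short DNA words containing GATA or GATC. The paper cites a study in which plant GATA factors preferred GATC to GATA. GNC and CGA1 are known for their roles in greening, chloroplast development and responses to light, nitrogen and cytokinin.

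Stretches of the first introns under the 5 highest GNC peaks are shown first, so that the sequence below a peak centre can be read beside its values. Each stretch runs 50 bp to either side of the peak centre unless the intron or an annotated exon ended it, and each is written 5′ to 3′ on the strand of the gene, with TAIR10 coordinates and sequence from the RefSeq TAIR10.1 assembly. Capitals mark GATA or its reverse complement TATC, a core word of GATA factors, which was present in 4 of these 5 stretches. GATC was not marked. No share was taken for stretches of this length elsewhere in first introns, so the counts here and below cannot show enrichment. In longer windows of 100 bp on each side, GATA occurred at 81.4% of intron positions that meet the rule. At the peaks the shares were 82.4% and 82.1% in GNC and 82.0% and 80.9% in CGA1.
MOB1-like, GNC peak, chr5:18462552-18462652, plus strand: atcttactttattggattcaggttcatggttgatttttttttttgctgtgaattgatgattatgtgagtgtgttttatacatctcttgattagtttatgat
SSI2, GNC peak, chr2:18120518-18120618, plus strand: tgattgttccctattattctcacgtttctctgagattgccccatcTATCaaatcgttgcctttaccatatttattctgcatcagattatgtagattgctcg
AT4G35240, GNC peak, chr4:16765907-16766007, minus strand: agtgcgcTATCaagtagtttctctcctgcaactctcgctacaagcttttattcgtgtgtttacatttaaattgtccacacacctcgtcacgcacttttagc
RDR2, GNC peak, chr4:6781208-6781308, plus strand: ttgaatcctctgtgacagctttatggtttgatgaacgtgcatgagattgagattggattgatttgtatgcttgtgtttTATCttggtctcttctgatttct
AAO3, GNC peak, chr2:11602079-11602155, plus strand: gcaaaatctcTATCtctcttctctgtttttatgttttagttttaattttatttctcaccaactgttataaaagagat

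The 5 highest CGA1 peaks in both lists are shown in the same way, and the capitals again mark GATA or TATC. The word was present in 3 of the 5 stretches.
SQS1, CGA1 peak, chr4:16538951-16539041, plus strand: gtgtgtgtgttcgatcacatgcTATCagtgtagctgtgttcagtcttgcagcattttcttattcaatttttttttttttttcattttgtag
AT2G16380, CGA1 peak, chr2:7086812-7086896, plus strand: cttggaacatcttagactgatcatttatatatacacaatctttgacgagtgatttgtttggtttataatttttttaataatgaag
AT5G20200, CGA1 peak, chr5:6817503-6817603, plus strand: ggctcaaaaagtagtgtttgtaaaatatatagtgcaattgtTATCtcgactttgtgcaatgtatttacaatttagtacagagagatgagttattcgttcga
AT1G53190, CGA1 peak, chr1:19837388-19837463, plus strand: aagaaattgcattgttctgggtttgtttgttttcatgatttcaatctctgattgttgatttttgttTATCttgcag
AT1G33080, CGA1 peak, chr1:11986578-11986678, plus strand: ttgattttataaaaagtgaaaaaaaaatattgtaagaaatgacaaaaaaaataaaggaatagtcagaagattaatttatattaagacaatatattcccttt

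The third set comes from introns with a peak in both lists of its line that overlapped a peak of the other line, with the capitals as before. The word was present in 4 of these 8 stretches.
AGL94, GNC peak, chr1:26146435-26146493, minus strand: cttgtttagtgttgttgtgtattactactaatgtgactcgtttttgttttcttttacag
KAPP, GNC peak, chr5:6488594-6488646, plus strand: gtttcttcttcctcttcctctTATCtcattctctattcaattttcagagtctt
AT-HSFA5, GNC peak, chr4:8078686-8078786, minus strand: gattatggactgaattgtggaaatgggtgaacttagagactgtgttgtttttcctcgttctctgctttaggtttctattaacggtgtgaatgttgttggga
PUT4, GNC peak, chr3:4452103-4452203, minus strand: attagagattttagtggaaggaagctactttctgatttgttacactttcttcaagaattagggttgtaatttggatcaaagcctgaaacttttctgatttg
CHR4, CGA1 peak, chr5:18093093-18093187, minus strand: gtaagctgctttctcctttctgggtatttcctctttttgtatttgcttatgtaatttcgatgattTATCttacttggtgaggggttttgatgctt
DRIP2, CGA1 peak, chr2:13026597-13026697, plus strand: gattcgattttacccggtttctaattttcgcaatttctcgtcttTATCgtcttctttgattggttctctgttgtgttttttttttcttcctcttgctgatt
TCP5, CGA1 peak, chr5:24536751-24536851, minus strand: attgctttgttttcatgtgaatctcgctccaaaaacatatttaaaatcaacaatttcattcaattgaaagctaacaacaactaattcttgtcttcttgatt
AT2G47610, CGA1 peak, chr2:19529955-19530055, plus strand: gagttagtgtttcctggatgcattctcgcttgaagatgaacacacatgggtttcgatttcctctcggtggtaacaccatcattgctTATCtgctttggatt

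Each peak carries a score, calculated by MACS as 10 times the negative log10 of the p-value for enrichment of IP reads over INPUT reads, and no list holds a score under 50. Scores rise with the depth of a library, so values of both lists are given side by side and no order between lists was read from them. The mean over the lists served only to order the genes. The lists hold no read counts, so depth was not known from them. Overlapping first-intron peaks of the GNC lists had the same edges in 156 of 156 pairs, and in CGA1 the edges differed by 0 or 4 bp in 65 of 68 pairs. The lists of a line were therefore counted as 1 sample, and no test of GNC against CGA1 was made. Even 2 lists against 2 could not go below an exact two-sided permutation p of 0.333. Shares are given with their Wilson interval at the 95% level in parentheses, which reflects counting error alone.

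In each list first introns held a larger share of the peaks than of the genome. The share of nuclear peaks was 3.27% (2.84 to 3.77) in GNC replicate 1 and 3.41% (2.97 to 3.91) in GNC replicate 2. In CGA1 it was 3.62% (2.95 to 4.44) and 3.71% (3.02 to 4.54). The positions that meet the rule made up 2.56% of the nuclear genome, which lies below the lower bound in every list. For GNC the ratios to this genome share were 1.28 and 1.33, and for CGA1 they were 1.42 and 1.45. The intervals of the lines overlapped, and the difference was not tested. The genome share counts every nuclear base, although the authors discarded reads with more than 1 match. The share among bases that unique reads could cover was not known, and its effect on these ratios was not tested. Per Mb of intron that could hold a centre, 61.7 and 64.0 peaks were listed for GNC and 29.2 and 29.2 for CGA1, against 48.2 and 48.0 for GNC and 20.6 and 20.1 for CGA1 over the whole nuclear genome.

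**Figure D1:**
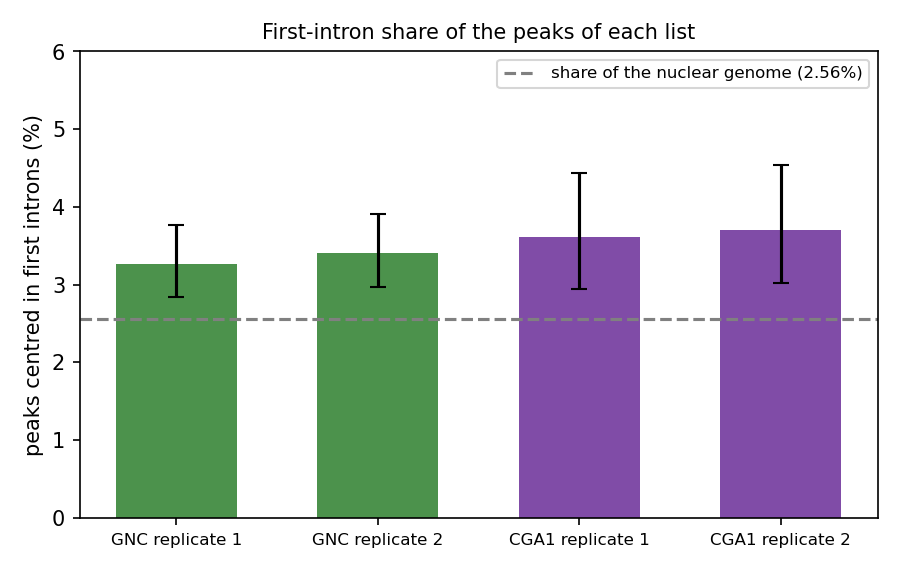
Share of the nuclear peaks of each list that were centred in first introns (bars, in percent) with 95% Wilson intervals (black lines), and the share of the nuclear genome that meets the same rule (dashed line, 2.56%). The bars reach from 3.27% to 3.71%, and every interval lies above the dashed line.

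Most of these peaks extended past the intron that held their centre. The median peak width was 382 and 390 bp in GNC and 420 and 393 bp in CGA1. The whole peak lay inside the intron for 40 of 188 and 47 of 195 GNC peaks (21.3% and 24.1%) and for 15 and 14 of the 89 CGA1 peaks (16.9% and 15.7%). A TSS lay under 10 and 9 of the GNC peaks (5.32% and 4.62%) and under 11 of the 89 peaks in each CGA1 list (12.4%). A centred peak therefore gives the intron as the location of the middle of the enriched interval, and the summit was not in the lists. At the edge of the TSS window, the nearest peaks taken were 124 bp from the TSS in GNC (AT1G52440, replicate 1, score 51.71) and 122 bp in CGA1 (AT5G66150, scores 65.79 and 56.01). The nearest left out lay 87 bp from the TSS in GNC (AT2G01240, score 51.21 in both lists) and 94 and 95 bp in CGA1 (AT1G76010, scores 59.50 and 66.62).

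The scores of first-intron peaks were close to those of the other peaks. The median score was 65.8 and 63.8 in GNC, against 65.3 and 65.6 for the other nuclear peaks, and 64.1 and 60.4 in CGA1, against 62.9 and 62.6. In GNC, 23 of 188 and 25 of 195 peaks (12.2% and 12.8%) scored 100 or more, against 10.9% and 11.4% of all nuclear GNC peaks. In CGA1, 7 of 89 peaks in each list (7.87%) did so, against 8.02% and 8.34% of all nuclear peaks. The shares were near the background in both lines. The highest first-intron scores were 201 and 180 in GNC and 127 and 156 in CGA1. The highest of the other peaks were 556 and 646 in GNC and 457 and 611 in CGA1. The other peaks were far more numerous (5556 and 5526 in GNC, 2367 and 2310 in CGA1). A maximum can rise with the number of peaks, so no difference was read from these values.

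Most first-intron peaks were found in both lists of their line. This was the case for 156 of 188 and 156 of 195 GNC peaks (83.0% and 80.0%), against 82.4% and 82.7% of all nuclear GNC peaks. For CGA1 it was the case for 68 of 89 peaks in each list (76.4%), against 78.1% and 80.0% of all nuclear peaks. Over both lists there were 227 distinct GNC peaks and 110 distinct CGA1 peaks. The 71 GNC peaks found in 1 list had a median score of 55.9 and none reached 100, while the 156 found in both had a median of 69.5 for the mean score. In CGA1 the median was 55.1 for the 42 peaks of 1 list and 66.5 for the 68 of both lists.

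The 156 GNC peaks of both lists lay in 156 genes, which is 1.17% of the 13373 genes with intron positions that meet the rule. The 68 CGA1 peaks of both lists lay in 68 genes (0.508%). With peaks of either list counted, the genes numbered 225 for GNC and 109 for CGA1. Few introns held more than 1 peak. UMAMIT12 and AT1G15800 did for GNC, and PIRL9 did for CGA1. In UMAMIT12 the second peak was listed in replicate 2 only, with a score of 53.21.

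The highest GNC peak lay in the first intron of MOB1-like (AT5G45550), a Mob1/phocein family gene needed for normal sporogenesis and gametogenesis. Its scores were 200.7 and 169.6 in replicates 1 and 2, and its intron was 810 bp long. SSI2 (AT2G43710), which encodes a plastid stearoyl-ACP desaturase of fatty acid synthesis, followed with 193.0 and 161.8 in an intron of 1107 bp. AT4G35240, a gene of unknown function with DUF630 and DUF632 domains, had 182.5 and 152.7 in an intron of 2525 bp that interrupts the 5′ UTR.

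RDR2 (AT4G11130), the RNA-dependent RNA polymerase of the heterochromatic siRNA pathway, had scores of 159.2 and 168.7 in an intron of 264 bp. AAO3 (AT2G27150), the aldehyde oxidase of the last step of abscisic acid synthesis, had 146.2 and 179.6 in an intron of 251 bp. The AAO3 peak was 966 bp wide and so extended well past its intron.

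A gap in mean score separated these 5 genes from the next. UMAMIT12 (AT2G37460), a nodulin MtN21-like transporter, had scores of 122.8 and 127.3 in an intron of 864 bp. The remaining genes of the 10 highest were AT3G57540, a remorin gene (141.5 and 108.6), AT1G20030, a thaumatin-like gene (115.1 and 127.3), AT1G30680, which encodes a toprim domain protein (116.8 and 124.5), and AT5G55560, a protein kinase gene (117.2 and 117.2).

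The highest CGA1 peak of both lists lay in SQS1 (AT4G34640), which encodes squalene synthase, the enzyme that commits farnesyl diphosphate to sterol synthesis. Its scores were 99.58 and 148.8, and its intron was 91 bp long under a peak of 755 bp. AT2G16380, a Sec14p-like phosphatidylinositol transfer gene, had 122.5 and 124.2 in an intron of 106 bp. AT5G20200, a nucleoporin-like gene, had 116.8 and 120.1 in an intron of 570 bp.

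AT1G53190, which encodes a RING/U-box protein, had scores of 112.5 and 113.8 in a 5′ UTR intron of 123 bp. AT1G33080, a MATE efflux gene, had 112.1 and 112.6 in an intron of 1105 bp, and AT3G23760, a putative glycosyl transferase gene, had 126.8 and 94.81 in an intron of 1001 bp. AT4G09520, a phosphoglycerate mutase gene, had 57.82 and 155.9. The others of the 10 highest were scpl48, a serine carboxypeptidase-like gene (118.3 and 99.89), AT1G77610, an EamA-like transporter gene (107.0 and 94.02), and AT5G44578, an uncharacterized gene (95.65 and 99.48).

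**Figure D2:**
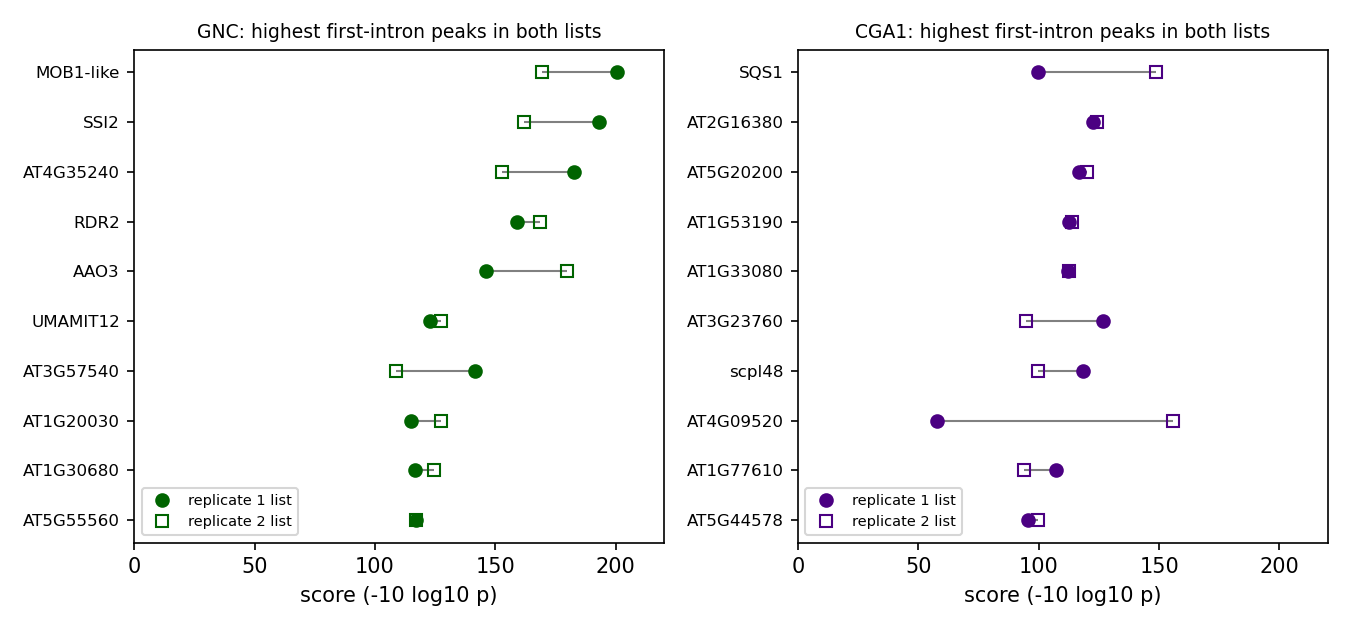
MACS scores (horizontal axis from 0, in units of 10 times the negative log10 of p) of the 10 first-intron peaks with the highest mean score in each line, with filled circles for the replicate 1 list, open squares for the replicate 2 list and a grey line joining them. The first 5 GNC genes have both scores at or above 146.2, and the CGA1 gene AT4G09520 has 57.82 in one list and 155.9 in the other.

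The genes were then grouped by words in the annotation of their function. Such a search does not find every member of a group and can take in genes that do not belong to it. For each group the share among genes with a peak in both lists is given beside its share of the intron bases that could hold a centre. Genes annotated as transcription factors were 13 of 156 for GNC (8.33%, 4.93 to 13.7) and 2 of 68 for CGA1 (2.94%, 0.810 to 10.1), against 8.42% of the bases. Kinases and phosphatases were 13 for GNC (8.33%, 4.93 to 13.7) and 3 for CGA1 (4.41%, 1.51 to 12.2), against 6.10%. Transporters were 12 (7.69%) and 4 (5.88%), against 7.11%, and RNA-binding proteins 3 (1.92%) and 1 (1.47%), against 2.42%. Genes that the word search placed in a chloroplast group were 11 (7.05%) and 8 (11.8%), against 9.42%. The interval of each of these groups included its share of the bases.

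Ubiquitin ligase genes were the exception in CGA1. They numbered 9 of 68 (13.2%, 7.12 to 23.3), against 4.70% of the bases, while in GNC they numbered 3 of 156 (1.92%, 0.656 to 5.50). The intervals of the lines did not overlap, but the difference was not tested since each line counts as 1 sample. With genes of either list, the shares were 10.1% for CGA1 and 2.22% for GNC.

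**Figure D3:**
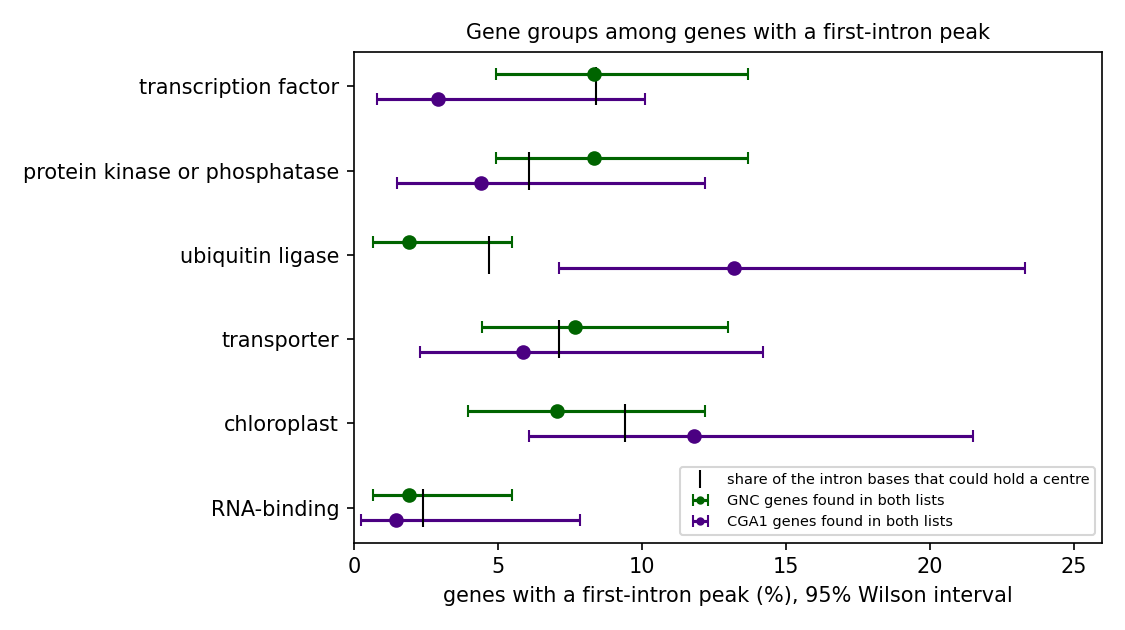
Share of genes with a first-intron peak in both lists (horizontal axis, percent) that fell in each of 6 annotation groups, for GNC (green points, 156 genes) and CGA1 (purple points, 68 genes) with 95% Wilson intervals, and the share of intron bases that could hold a centre (black ticks). Ubiquitin ligase genes of CGA1, at 13.2%, are the only point whose interval excludes its tick.

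The 9 CGA1 genes of the ubiquitin group were of several kinds. RING proteins, which carry the domain that recruits the ubiquitin-conjugating enzyme, were encoded by AT1G53190, by AT1G73760 (scores 57.53 and 57.92, intron 419 bp) and by DRIP2 (77.43 and 56.39, intron 1419 bp), whose product binds the drought response factor DREB2A. RGLG3, a ligase of jasmonate signalling, had 58.18 in both lists in an intron of 79 bp. The tubby-like genes TLP4 and TLP9, annotated with F-box domains, had 87.62 and 59.40 and 80.53 and 80.92, in introns of 79 and 103 bp. AT4G09870, which encodes an F-box protein, had 62.31 and 93.16 in an intron of 113 bp. AT1G36070 (75.06 and 60.44) and AT4G03020 (54.26 and 52.10) encode WD40 repeat proteins that are annotated to a CUL4 RING ligase complex and carry no ligase domain of their own. Scores in the group thus ran from 52.10, near the lowest value listed, to 113.8.

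The GNC genes of that group were AT3G61180 (83.60 and 76.08) and AT1G04790 (71.10 and 53.62), which encode RING/U-box proteins, and AT4G05475 (71.72 and 73.13), which encodes an RNI-like protein with an F-box. None of the 3 was among the CGA1 genes.

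Among the 13 genes annotated as transcription factors in GNC, AT1G69360 had the highest scores, 134.1 and 95.58. Like AT1G26620 (72.78 and 85.42), it is named a putative T-box factor with a DUF863 domain, a name that rests on the annotation alone. Heat stress factor genes made up 3 of the 13. AT-HSFA5 had 90.57 and 113.8, HSFA1D 53.98 and 51.83, and HSFA7A 50.18 and 52.48, so that the HSFA1D and HSFA7A peaks were near the lowest score listed.

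CAL (AT1G26310), a MADS-box gene of floral meristem identity, had scores of 61.66 and 95.05 in an intron of 1055 bp. KDR, a bHLH gene of light signalling, had 88.54 and 67.28, and MYB42 had 64.79 and 87.15. TGA4, a bZIP gene of defence and nitrate responses, had 64.17 and 59.12 in a 5′ UTR intron of 4873 bp, the longest first intron with a GNC peak. AGL94 had 77.97 and 70.50, NAC025 59.38 and 65.62, NAC074 56.37 and 54.21, and WRKY54 51.68 and 51.81. The CGA1 transcription factor genes were TCP5, a CIN-class gene that limits leaf growth, with 67.75 and 86.26, and WRKY72, a gene of basal immunity, with 60.94 and 64.45.

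Hand-made lists of genes with known roles in light, hormones and flowering were also looked up. Since 1.17% of all genes with such intron positions had a GNC peak in both lists and 0.508% a CGA1 peak, lists of this size were too short for their counts of 0 or 1 to say anything particular about them. Of 37 listed MIKC-type MADS-box genes, all of which have intron positions that meet the rule, CAL was found for GNC and none for CGA1. AGL94, which is also annotated as a MIKC gene and had a GNC peak in both lists, was not on that list. SOC1 (56.47, intron 440 bp) and SHP1 (52.73, intron 1298 bp) had a CGA1 peak in replicate 1 only. Of 23 light signalling and clock genes with such positions, PIF7, a phytochrome-interacting bHLH gene, had GNC scores of 72.79 and 80.83 in an intron of 77 bp, and none was found for CGA1. Of 27 cytokinin and auxin signalling genes, ARF1, an auxin response factor gene, had CGA1 scores of 95.42 and 90.33 in a 5′ UTR intron of 764 bp, and none was found for GNC. Of 10 genes with a well studied leader or first intron, 0 had a peak of either line in either list, a count that says as little. PIF7 and ARF1 encode transcription factors that the word search did not find. It also missed others with a GNC peak in both lists, among them VRN1 and KAN2, which are annotated as such or as putative ones. The transcription factor counts given above are therefore incomplete.

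The gene GNC itself (AT5G56860) had a GNC peak in its 277 bp first intron in replicate 1 only, which scored 52.59 and was centred 722 bp from the TSS. The peak was 416 bp wide and its centre lay 97.7% of the way along the intron, so it extended past the intron. The line also carried the myc-GNC transgene, and whether its DNA added to this peak was not tested.

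Among the 13 kinase and phosphatase genes of GNC, the highest after AT5G55560 were KAPP, a phosphatase that binds receptor-like kinases (96.08 and 107.6), AT1G21590 (107.3 and 93.31) and CRK3, a CDPK-related kinase gene (77.51 and 122.3). EDR1, a negative regulator of defence, had 59.32 and 63.63. CRLK1 and CRLK2, which encode calcium-regulated receptor-like kinases, had 54.80 and 50.23 and 50.58 and 53.74. The 3 CGA1 genes were AT1G52310 (70.61 and 66.29), the GSK3-like kinase gene SKdZeta (67.66 and 68.06) and AT5G17070 (56.95 and 56.95).

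Transporter genes of GNC after UMAMIT12 included OEP16-3 (107.2 and 102.3), the inositol symporter gene INT4 (83.19 and 81.33), the mitochondrial porin gene VDAC1 (84.00 and 75.92), the polyamine uptake gene PUT4 (79.01 and 71.09) and the high-affinity nitrate transporter gene NRT2.5 (67.24 and 61.85). The list also held AGO1 (60.88 and 60.22), whose annotated product name mentions a transporter but which encodes the slicer of microRNA silencing. In CGA1 the 4 members were AT2G16380, AT1G33080, AT1G77610 and the cyclic nucleotide-gated channel gene CNGC4 (51.89 and 54.93).

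Of the chloroplast group, SSI2 was the highest in GNC. AT4G11910, a STAY-GREEN-like gene annotated to act against SGR1 in balancing chlorophyll breakdown, had 79.18 and 78.11. P5CS2, a gene of proline synthesis, had 52.92 and 63.83. In CGA1, AT3G10130, which encodes a SOUL haem-binding protein, had 70.46 and 111.5 in an intron of 81 bp, and AT5G15700, a nuclear gene for a plastid RNA polymerase, had 52.35 and 50.45. MGP1, listed in this group, encodes a subunit of the mitochondrial ATP synthase (50.04 and 60.23). In GNC the group also took in PEN3, a transporter annotated to the plasma membrane (81.97 and 63.43), and the bHLH gene KDR. Membership therefore does not show that a product acts in the chloroplast.

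First introns with a peak were longer than first introns at large, as the rule itself favours, since long introns reach past the TSS window. The median length was 368 and 428 bp for GNC and 340 and 340 bp for CGA1, against 152 bp for all 30659 distinct first introns. Against the intron bases that could hold a centre, for which the median was 384 bp, the lengths were similar. Quartiles were 216 to 689 and 224 to 744 bp in GNC and 127 to 613 and 133 to 570 bp in CGA1, against 197 to 672 bp for the bases.

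Introns of at most 200 bp, a boundary chosen after the lengths were seen, held 22.9% (17.4 to 29.4) and 21.5% (16.3 to 27.8) of GNC peaks. In CGA1 they held 38.2% (28.8 to 48.6) and 37.1% (27.8 to 47.5), and of the bases 25.4%. The intervals of CGA1 lay above the share of the bases and those of GNC included it. The intervals of CGA1 and GNC lists met or overlapped for 3 of the 4 pairs of lists, and the difference was not tested. Where several first introns held a centre the shortest was used, and with the longest the shares were 19.7% and 19.5% in GNC and 32.6% in both CGA1 lists.

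**Figure D4:**
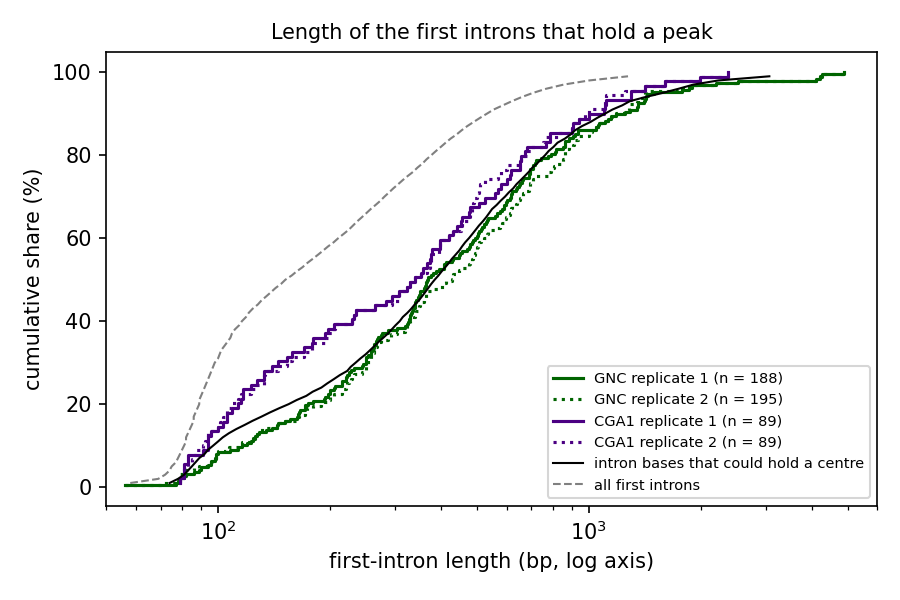
Cumulative share (percent) of first-intron peaks by the length of the intron that held the centre (bp, log axis) in the 4 lists, with intron bases that could hold a centre (black) and all first introns (grey dashed). The CGA1 curves (purple) reach 38.2% and 37.1% at 200 bp, above the GNC curves (green) at 22.9% and 21.5%.

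The shortest introns with a peak in both GNC lists were those of AT3G21450, a kinase gene (56 bp, scores 76.92 and 74.91), PIF7 (77 bp) and AT1G21590 (78 bp). The longest were those of AT5G17165 (4209 bp, 69.07 and 59.69), PAP5, a purple acid phosphatase gene (4256 bp, 80.67 and 92.53), and TGA4 (4873 bp). In CGA1 the shortest were those of TLP4, RGLG3 (both 79 bp) and AT3G10130 (81 bp). The longest were those of PEL3, an acyltransferase gene of the cuticle (1607 bp, 54.07 and 55.55), AT2G29995 (1991 bp, 90.38 and 90.84) and AT4G20250 (2371 bp, 91.93 and 91.93).

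Distance was first measured from the nearest TSS among the transcripts whose first intron held the centre. The median was 667 and 676 bp in GNC and 553 and 572 bp in CGA1, against 636 bp for the bases that could hold a centre. Between 250 and 500 bp from the TSS lay 22.3% and 21.0% of GNC peaks, while the share was 34.8% in both CGA1 lists and 26.6% for the bases. Between 500 and 1000 bp the shares were 47.9% and 47.7% in GNC and 33.7% and 30.3% in CGA1, beside 42.4% of the bases. Beyond 1000 bp the shares were 19.1% and 22.6% in GNC and 20.2% and 22.5% in CGA1, against 22.5%. With the farthest TSS of those transcripts the medians, each the mean of both lists, were 689 bp in GNC and 684 bp in CGA1. The gap between the lines thus rested on the choice of TSS, and it was not tested.

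**Figure D5:**
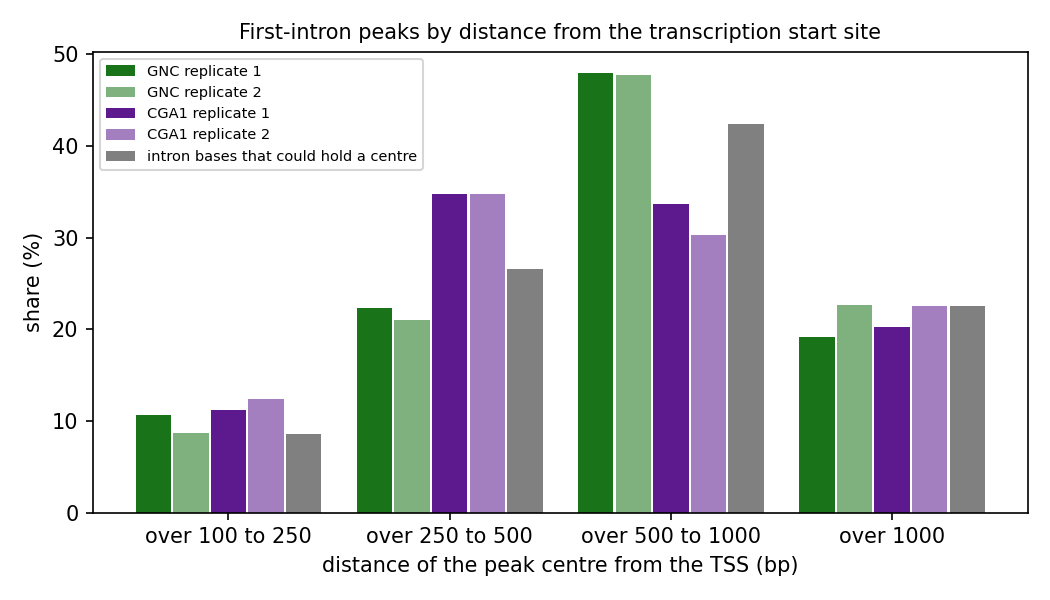
Share (percent) of first-intron peaks in 4 classes of distance between the peak centre and the nearest TSS of the transcripts whose first intron held it (bp) for the GNC lists (green) and the CGA1 lists (purple), with the share of intron bases that could hold a centre (grey). Between 250 and 500 bp the CGA1 bars stand at 34.8% and the grey bar at 26.6%, and between 500 and 1000 bp the GNC bars stand at 47.9% and 47.7% and the grey bar at 42.4%.

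Along the intron itself no preferred position was seen. The median centre lay 53.8% and 53.6% of the way along in GNC and 57.3% and 55.8% in CGA1, against 51.7% for the bases. The last 10% of the intron held 11.2% and 11.3% of the GNC centres and 3.37% and 4.49% of the CGA1 centres, against 10.6% of the bases, which in CGA1 were 3 and 4 peaks.

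Introns that interrupt the 5′ UTR, called leader introns, held 22.9% (17.4 to 29.4) and 20% (15.0 to 26.2) of the GNC peaks. In CGA1 they held 22.5% (15.0 to 32.2) in both lists. Such introns made up 14.9% of the bases that could hold a centre, so the lower bounds lay just above this share in every list. Of the peaks found in both lists, 35 of 156 in GNC (22.4%, 16.6 to 29.6) and 15 of 68 in CGA1 (22.1%, 13.8 to 33.3) were in leader introns. For these peaks the interval of CGA1 included the 14.9% of the bases and that of GNC lay above it. Beside AT4G35240 and AT1G69360, the highest GNC scores were those of AT2G04340 (100.6 and 127.3), AT3G23480 (111.0 and 101.6) and SAM1, an S-adenosylmethionine synthetase gene (105.2 and 100.1). In CGA1 the highest were those of AT1G53190, AT4G09520 and ARF1.

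Peaks of GNC and CGA1 in first introns seldom overlapped. A peak of the other line overlapped 4 of 188 and 6 of 195 GNC peaks (2.13% and 3.08%), against 2.99% and 2.83% of all nuclear GNC peaks. It overlapped 4 of the 89 peaks in each CGA1 list (4.49%, 1.76 to 11.0), against 6.84% and 7.29% of all nuclear CGA1 peaks. The intervals included the background.

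The overlaps at AGL94 and KAPP were found in both lists of both lines. At AGL94 GNC scored 77.97 and 70.50 and the overlapping CGA1 peak, which was not among the first-intron peaks, scored 84.82 in both lists. At KAPP GNC scored 96.08 and 107.6 and the CGA1 peak, which was not among the first-intron peaks either, scored 58.3 and 55.68. At AT2G47610, a ribosomal protein gene with a 324 bp first intron, CGA1 scored 70.73 and 61.96 and GNC scored 54.02 in replicate 2 only. Overlaps with a single list of the other line were found at AT-HSFA5 (CGA1 52.92), PUT4 (CGA1 53.61), BST1 (GNC 75.99 in replicate 2, CGA1 67.39), TCP5 (GNC 51.29) and DRIP2 (GNC 62.69). At these genes too, the peak of the other line was not among the first-intron peaks.

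CHR4 (AT5G44800), which encodes a chromatin remodelling ATPase, was the single gene with a first-intron peak of both lines in both lists, which is 0.641% of the genes of GNC and 1.47% of those of CGA1. Its leader intron of 907 bp held a GNC peak 1576 bp from the TSS, with scores of 82.35 and 54.98, and a CGA1 peak 764 bp from the TSS, with scores of 79.26 and 74.10. These did not overlap each other, but the CGA1 peak overlapped a further GNC peak of replicate 2 with a score of 53.96. With either list, AT2G47610 was added to the shared genes.

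Genes with a first-intron peak had a promoter peak about as often as other genes did. Of the 13373 genes, 8.40% had a GNC peak and 3.97% a CGA1 peak centred from 1000 bp upstream to 100 bp downstream of a TSS. Among genes with a GNC first-intron peak, a GNC promoter peak was found in 15 of 188 (7.98%, 4.89 to 12.7) and 16 of 193 (8.29%, 5.17 to 13.0). Among genes with a CGA1 first-intron peak, a CGA1 promoter peak was found in 5 of 88 (5.68%, 2.45 to 12.6) and 4 of 89 (4.49%, 1.76 to 11.0). The intervals included the background. AGL94 had promoter peaks of both lines, AT1G53190 had one of GNC, and AT2G47610, KAPP and BST1 each had one of CGA1.

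The word GATA, counted on both strands within 100 bp on each side of the centre, was no more frequent at these peaks than in first introns at large. It occurred in 82.4% and 82.1% of the GNC windows and 82.0% and 80.9% of the CGA1 windows, against 81.4% of windows at the bases that could hold a centre. The longer words AGATAA and GATAAG, which contain it, occurred in 15.4% and 16.9% and in 8.51% and 10.8% of the GNC windows, against 19.6% and 9.99% of the bases. In CGA1 they occurred in 20.2% and 19.1% and in 8.99% and 7.87%. GATC occurred in 45.7% and 46.7% of the GNC windows and 53.9% and 56.2% of the CGA1 windows, against 50.8%, and all 4 intervals included that value. With 250 bp on each side the shares were 82.4% and 80.5% in GNC and 83.1% and 82.0% in CGA1, against 82.4%.

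The E-box CANNTG, which takes in the G-box CACGTG, occurred in 49.5% and 46.2% of the GNC windows, against 48.6% of the bases. In CGA1 it occurred in 57.3% (46.9 to 67.1) and 59.6% (49.2 to 69.1), and the interval of replicate 2 alone lay above 48.6%. With 250 bp on each side the direction turned, with 78.7% and 77.5% of CGA1 windows and 86.7% and 83.1% of GNC windows, against 81.3% of the bases. The enhancement word TTNGATCTG or TTNGATTTG occurred in 7.45% and 6.67% of the GNC windows and 8.99% and 5.62% of the CGA1 windows, against 6.46% of the bases and between 3.55% and 3.73% of the windows at other peaks. With 250 bp on each side it occurred in 25.8% (17.9 to 35.8) and 22.5% (15.0 to 32.2) of the CGA1 windows, 13.8% and 12.8% of the GNC windows and 13.5% of the bases. The difference between the lines at that width was not tested. GGNCC occurred in 13.3% and 12.8% of the GNC windows and 8.99% and 4.49% of the CGA1 windows, against 11.1% of the bases. The median GC content was 33.3% and 32.8% in GNC and 34.3% and 34.3% in CGA1, near the 33.8% of the bases.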

How the data were processed

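Chromatin of myc-GNC and myc-CGA1 plants was immunoprecipitated and sequenced. After trimming, the authors aligned reads to the TAIR10 genome using Bowtie2 (2.2.6 per the submitters' processing notes), discarded reads with more than 1 match, and ran MACS on each replicate. The lists deposited by the authors hold intervals and a score per peak, with no read counts, so depth was not known from them. Groups follow the sample titles, although the CGA1 INPUT descriptions refer to the GNC lists.

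Peak centres were placed on the RefSeq TAIR10.1 annotation (48147 protein-coding transcripts of the 5 nuclear chromosomes), with coordinates counted from 1. Where several first introns held a centre the shortest was used. Every base of the nuclear genome was classified in the same way and served as the reference. Peaks were matched by an overlap of at least 1 bp. No test was made, for the reason given with the scores. The position and overlap rules were tested on simulated data. Python 3.11.15, numpy 2.4.6, pandas 2.3.3, scipy 1.17.1 and biopython 1.88 were used.

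The members, gene lists and comparisons were chosen with earlier results of these data known. Named were, for peaks of both lists in each line, the 10 highest mean scores, the 3 longest and 3 shortest introns, transcription factor and listed genes, and genes with peaks of both lines. Other genes, among them those of the remaining groups, were named after their values were seen. Alternatives were a score of at least 100, other overlap, position and window rules, and each replicate left out in turn. For the share of short introns, the longest intron was an alternative chosen after seeing the data.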

Additional observations from a re-analysis of the deposited data

Results flagged for a closer look

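In 6 of 18 measures compared, both GNC lists lay on one side of the intron bases that could hold a centre and both CGA1 lists on the other. None of these differences was tested, since each line counts as 1 sample. Lists of a line share most of their peaks, so they often fall on the same side together. How often the lines would lie on opposite sides without any difference was not worked out. The count of 6 is therefore not read as a difference between GNC and CGA1. The median distance from the TSS was 667 and 676 bp in GNC and 553 and 572 bp in CGA1, against 636 bp. These distances are from the nearest TSS, and from the farthest TSS the medians were 689 bp in GNC and 684 bp in CGA1. GATC occurred in 45.7% and 46.7% of the GNC windows and 53.9% and 56.2% of the CGA1 windows, against 50.8%.

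The G-box CACGTG occurred in 3.19% and 3.08% of the GNC windows and in 1.12% of the windows in both CGA1 lists, against 1.29%, which were 6 GNC windows and 1 CGA1 window in each list. GGNCC occurred in 13.3% and 12.8% of the GNC windows and 8.99% and 4.49% of the CGA1 windows, against 11.1%. GGNCCCAC, which contains GGNCC, occurred in 0.532% and 0.513% of the GNC windows and in 0 of 89 CGA1 windows in each list, against 0.324%. In GNC this was 1 window in each list, and at so low a share a count of 0 in CGA1 says little. GAGAGAGA occurred in 0.532% and 0.513% of the GNC windows and 3.37% and 4.49% of the CGA1 windows, against 2.85%, which were 1 GNC window in each list and 3 and 4 CGA1 windows.

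With windows of 250 bp on each side, 3 of these 5 words no longer had the lines on opposite sides. GATC occurred in 82.4% and 80.5% in GNC and 83.1% and 82.0% in CGA1, against 82.4%. CACGTG occurred in 5.32% and 6.15% and in 3.37% and 4.49%, against 3.84%, and GGNCCCAC in 1.60% and 1.54% and in 1.12% of both CGA1 lists, against 0.923%. GGNCC (32.4% and 33.3% in GNC, 27.0% and 22.5% in CGA1, against 29.6%) and GAGAGAGA (6.91% and 5.64% in GNC, 10.1% and 11.2% in CGA1, against 8.62%) stayed on opposite sides.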

How the results depend on the processing

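Of 102 alternative values for 40 results, 82 stayed within the counting interval of the value reported and 20 moved out of it. Without the windows at the TSS and transcript ends, the share of peaks in first introns was 5.36% for GNC and 6.22% for CGA1. With the whole peak inside 1 intron it was 0.759% and 0.597%, and with the longest-coding transcript of each gene alone it was 2.97% for CGA1. The ratios to the genome share, recomputed under the position rules, stayed between 1.21 and 1.44 for the mean of each line. Every peak with a score of at least 100 was found in both lists (100% in either line). The share overlapping the other line was 0.256% for GNC with a reciprocal overlap of 50%. It was 10.4% and 23.0% for GNC and CGA1 with centres within 2000 bp. For CGA1 with a score of at least 100 it was 0%, which rests on 7 peaks in each list. No shares of all nuclear peaks were taken under these overlap alternatives, so they cannot be set against a background. The median GNC score was 69.2 with peaks of both lists alone. GATA occurred in 97.9% and 97.8% of GNC and CGA1 windows of 250 bp on each side, against 98.0% of windows at the bases. It occurred in 92.9% of CGA1 windows with a score of at least 100, again from 7 peaks in each list. With promoter peaks of a score of at least 100, promoter shares were 0% and 0% for GNC genes, and 3.95% (GNC peaks) and 1.14% (CGA1 peaks) for CGA1 genes. No share over all genes was taken at that score, and the difference between the lines was not tested. With a promoter from 500 bp upstream, 4.52% of CGA1 genes had a GNC promoter peak, against 9.61% with the promoter from 1000 bp upstream. Leaving out each replicate in turn moved no value out of its interval, and these values are among the 82. Each is the value of the other list of the line, which shares most of its peaks. They could therefore hardly have moved, and they say little about the spread between replicates. No paired analysis was possible because the results come from no test.

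Limits: depth, read counts and summits were not known, the lists of a line count as 1 sample, most peaks extended past their intron, and no untagged plants were analysed here.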

Other observations

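Further genes with a peak in both lists, named after their values were seen, are given as values. NRPD1A, which encodes the largest subunit of RNA polymerase IV, had GNC scores of 61.79 and 116.4 in a leader intron of 244 bp. GNC peaks were also listed at VRN1, a vernalization gene (66.26 and 75.15), EMF1, a repressor of flowering (57.63 and 67.34), and CHR5, a chromatin remodeller (51.77 and 61.88). SYD, a remodelling ATPase of the SWI2/SNF2 type, had CGA1 scores of 55.20 and 53.57.

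KAN2, a leaf polarity gene, had GNC scores of 88.48 and 83.06, JLO, an organ boundary gene, had GNC scores of 58.64 and 74.72, and REV, an HD-ZIP III gene, had CGA1 scores of 55.97 and 65.46. SIGE, a sigma factor gene for light-dependent plastid transcription, had GNC scores of 70.68 and 64.64 in a leader intron of 123 bp. SPY, a negative regulator of the gibberellin response, had GNC scores of 53.60 and 68.34, and GA2OX6, which inactivates gibberellins, had 52.01 and 54.99.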
